A study of Mus musculus with 2 samples.

Results

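The 10 genes described here belong to the contractile machinery of smooth muscle and pericytes, and were measured in the air pouch membrane, the lining that forms around air injected under the skin of the back. They are the actins Acta2 and Actg2, the myosin subunits Myh11 and Myl9, the kinase Mylk, the actin-binding proteins Tagln, Cnn1, Smtn and Lmod1, and the LIM protein Csrp2. Every probe set (the set of array probes that reports on a given transcript) that the platform annotation assigned to one of these genes alone was taken, which gave 15 of the 45101 probe sets and 10 of the 18193 genes on the array. The genes were chosen by their MSU and control signals on these arrays, so their ratios are a description and support nothing by themselves.

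Membranes came from female Balb/C mice aged 6 to 8 weeks. MSU pouches had received 2 mg monosodium urate (MSU) crystals in 1 ml PBS and control pouches 1 ml PBS alone, on day 7 after 2 ml air per the sample records. The paper gives another air volume and day. Membranes were dissected after 9 h, and the RNA of 3 mice per condition was pooled and hybridized to 1 array, so there is 1 MSU value and 1 control value for each probe set and no measure of variation between mice.

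Smooth muscle cells of arterioles and venules, and the pericytes of smaller vessels, contract when calcium-bound calmodulin activates myosin light chain kinase, which phosphorylates the regulatory light chain and lets myosin pull on actin filaments. Myosin phosphatase reverses this step. Many contractile genes are controlled by serum response factor (SRF) with its cofactors of the myocardin family, through a DNA motif called the CArG box. Acta2 and Tagln are also made by activated fibroblasts (myofibroblasts), and several of the genes by the myoepithelial cells of glands.

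Most of the contractile genes that could be measured gave less signal in the MSU pool. A fold compares the MSU with the control signal and needs both to reach the detection floor of their array. Where 1 signal fell short, the fold is a bound, written with "at least" and computed with the floor in its place. Each floor was set by rank, so that the number of probe sets at or above it matched the number of detected probe sets in the paper. It came to 74.1 on the MSU array and 64.6 on the control array. Of the 10 genes, 6 had a fold on both sides, 1 (Myl9) had a bound because only its control signal reached the floor, and 3 (Myh11, Cnn1 and Lmod1) lay below the floor in both pools. With these floors there is no fold for Myh11, Cnn1 and Lmod1, which mark differentiated smooth muscle, and the description rests on the other 7 genes. The detection calls of the array software were not used here and may place single probe sets differently, Cnn1 and Myh11 among them. In the MSU pool 5 genes were at least 2-fold lower (Acta2, Actg2, Myl9, Tagln and Csrp2) and 0 at least 2-fold higher, and Mylk and Smtn lay between these limits. Among all 11155 measured genes, 4.29% were at least 2-fold lower and 3.7% at least 2-fold higher. Myl9 counts as measured only through its control signal, so the count of 5 holds a gene that had to be lower to be counted.

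The median log2 ratio of the 6 genes with a fold was -1.14, against -0.05 for the 10045 genes with a fold in the whole table. With Myl9 at its bound the median was -1.17. Since fewer cells expressing these genes and less RNA per cell give the same ratio in a whole membrane, they cannot be told apart here. The paper names dilution by mRNAs of incoming inflammatory cells as another possible source of lower resident cell mRNAs, which was not tested here. The size of 2-fold is a fixed limit and not a test. As a scale for the ratios, the log2 ratios of probe sets of a same gene had a pooled SD of 0.33 over 4002 genes. Differences between mice do not enter that SD.

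**Figure D1:**
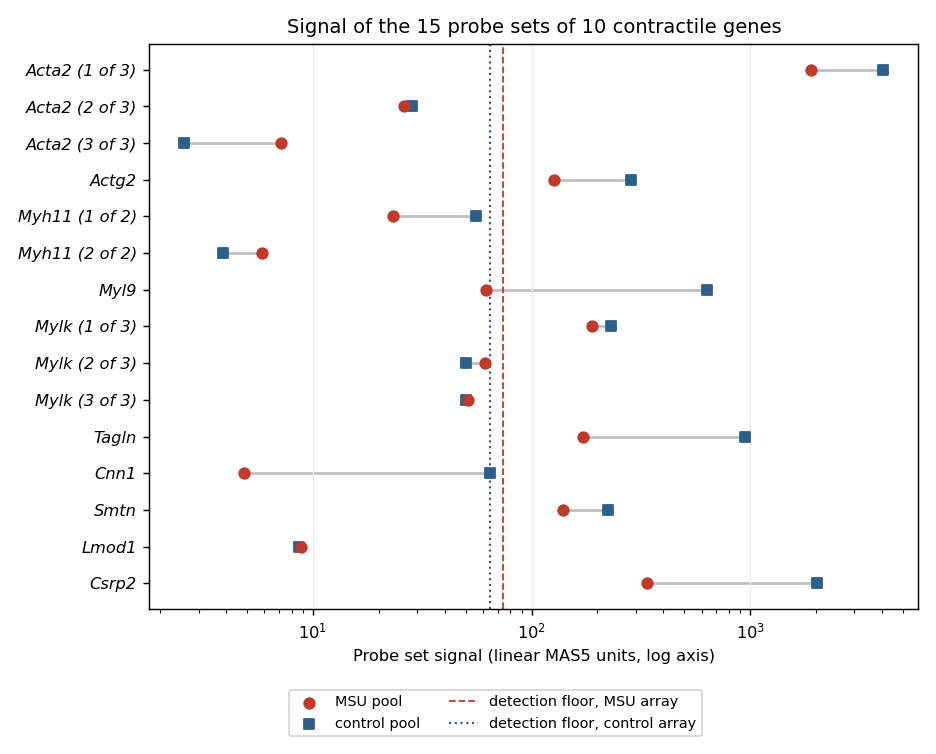
Signal of each of the 15 probe sets (y axis, brightest first within a gene) in the MSU pool (red circles) and the control pool (blue squares), in linear MAS5 units on a log axis, with 1 array per pool and the detection floors as vertical lines (74.1 for MSU and 64.6 for control). The 6 probe sets right of both floors on both arrays belong to Acta2, Actg2, Mylk, Tagln, Smtn and Csrp2, and Myl9 lies right of the floor in the control pool alone.

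For 6 of the 10 genes, RefSeq promoter sequence was at hand (mouse assembly GRCm38.p6, 250 bases before to 50 after the start of the gene). It was searched for the CArG box, a CC and a GG around a core of 6 letters that are all A or T, which reads the same on both strands. A core with 1 G or C was counted separately. The promoter windows of Acta2 and Myl9 were the only ones of the 6 to hold such matches and are shown. Acta2 carries the brightest signal of the group and Myl9 its only bound. Capitals mark each match, with 1 G or C in the core of both matches of Acta2 and of the second match of Myl9.
Acta2, chr19:34255324-34255623, minus strand: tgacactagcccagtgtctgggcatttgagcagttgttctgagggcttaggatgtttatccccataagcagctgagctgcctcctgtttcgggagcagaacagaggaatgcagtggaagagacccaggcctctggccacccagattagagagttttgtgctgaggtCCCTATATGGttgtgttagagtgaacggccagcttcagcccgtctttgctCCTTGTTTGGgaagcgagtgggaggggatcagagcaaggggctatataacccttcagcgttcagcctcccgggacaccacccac
Myl9, chr2:156775214-156775513, plus strand: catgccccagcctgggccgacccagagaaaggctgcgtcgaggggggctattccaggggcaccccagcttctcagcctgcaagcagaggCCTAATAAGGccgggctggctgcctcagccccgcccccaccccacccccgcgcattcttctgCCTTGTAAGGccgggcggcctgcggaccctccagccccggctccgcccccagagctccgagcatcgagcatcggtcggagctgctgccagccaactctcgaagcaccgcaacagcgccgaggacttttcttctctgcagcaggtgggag
In the window of Acta2 the matches, CCCTATATGG and CCTTGTTTGG, lay 84 to 75 and 34 to 25 bases before the start. In the window of Myl9, CCTAATAAGG lay 161 to 152 bases before the start and CCTTGTAAGG 99 to 90. The windows of Lmod1, Cnn1, Smtn and Mylk held no match of either kind. Of 32851 promoter windows of the same length, 1.63% held a CArG box, 9.98% held at least 1 match of either kind, and 0.822% held at least 2. A match is a description of the letters, and SRF binding was not measured.

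The smooth muscle actins were both a little over 2-fold lower. Acta2, the actin of vascular smooth muscle and of myofibroblasts, had a signal of 1894 in the MSU pool and 4072 in the control pool on its brightest probe set (1416454_s_at), which is 2.15-fold lower. The name of this probe set ends in _s_at, the manufacturer's mark for probes that can match more than 1 transcript, so part of its signal may come from related actins. The other two Acta2 probe sets lay below both floors, with signals of 26.0 in the MSU pool and 28.4 in the control pool on one and of 7.12 in the MSU pool and 2.58 in the control pool on the other. Actg2, the actin of visceral smooth muscle, had a signal of 127 in the MSU pool and 284 in the control pool (1422340_a_at) and was 2.24-fold lower. Its MSU signal was 1.71 times the floor, so it lay nearer to the limit of detection than Acta2, at 25.6 times the floor.

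The actins of other cells did not share this size of difference. The cytoplasmic actins Actb and Actg1 had signals of 12810 and 10106 in the MSU pool, against 9708 and 7789 in the control pool, log2 ratios of 0.40 and 0.38 that become -0.06 and -0.08 under scaling on the spike-ins. Acta1, the actin of skeletal muscle, had a log2 ratio of 0.20, which became -0.01 under quantile normalization and -0.26 under scaling on the spike-ins. The log2 ratio of Acta2 minus that of Acta1 was -1.30, and minus that of Actb -1.50, differences that any scaling of a whole array by 1 factor leaves as they are. Actc1, the cardiac actin, had signals of 100 in the MSU pool and 113 in the control pool and was 1.13-fold lower.

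Among the myosin light chains, Myl9 and its striated muscle relatives were lower in the MSU pool by more than the broadly expressed ones. Myl9, the light chain that the kinase phosphorylates in smooth muscle, had a signal of 62.1 in the MSU pool, below the floor, and 634 in the control pool (1452670_at), which is at least 8.55-fold lower. Its plain ratio was 0.0981. The broadly expressed light chains Myl12a and Myl12b, with signals of 2526 and 1133 in the MSU pool against 2772 and 1680 in the control pool, were 1.10- and 1.48-fold lower. Mylpf, the regulatory light chain of fast skeletal muscle, had signals of 732 in the MSU pool and 2064 in the control pool and was 2.82-fold lower. Myl2, that of cardiac and slow muscle, had 24.9 in the MSU pool, below the floor, and 268 in the control pool and was at least 3.61-fold lower. The bounds of Myl9 and Myl2 have no order, and their plain ratios were 0.0981 and 0.0929. Myl6, the essential light chain that joins smooth muscle and nonmuscle myosin alike, was 1.35-fold lower.

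Myh11, the heavy chain of smooth muscle myosin and the gene most used to define smooth muscle cells, lay below the floor in both pools. Its brighter probe set (1448962_at) had a signal of 23.2 in the MSU pool and 55.6 in the control pool, and the other 5.85 in the MSU pool and 3.87 in the control pool. The 2 probe sets thus went in opposite directions below the floor, and no fold is given. The nonmuscle heavy chains were measured, with Myh9 1.65-fold higher and Myh10 1.95-fold lower in the MSU pool. Myh9 had signals of 3053 in the MSU pool and 1847 in the control pool, and Myh10 signals of 331 in the MSU pool and 647 in the control pool. Of the skeletal muscle heavy chains, Myh2 was 4.95-fold lower, Myh7 at least 3.24-fold lower and Myh1 1.74-fold lower.

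Mylk, the myosin light chain kinase, differed least of the measured genes. Its brightest probe set (1425506_at) had a signal of 189 in the MSU pool and 230 in the control pool and was 1.22-fold lower, a log2 ratio of -0.29 whose size is below the pooled SD of 0.33 given above. The other two Mylk probe sets lay below both floors, with 60.9 in the MSU pool and 50.0 in the control pool on one, and 51.0 in the MSU pool and 49.9 in the control pool on the other. The skeletal muscle kinase Mylk2 was 1.54-fold lower and Mylk4 1.76-fold lower.

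The actin-binding proteins divided by their detection. Tagln (transgelin, or SM22 alpha), an early marker of smooth muscle that binds actin filaments, had a signal of 171 in the MSU pool and 947 in the control pool (1423505_at) and was 5.53-fold lower. Of the 10045 genes with a fold, 7 (0.0697%, itself included) had a ratio as low. Its broadly expressed paralog Tagln2 had signals of 1296 in the MSU pool and 1741 in the control pool and was 1.34-fold lower. Smtn (smoothelin), a protein of actin filaments in contracting smooth muscle, had a signal of 140 in the MSU pool and 223 in the control pool (1452469_a_at) and was 1.60-fold lower. The smoothelin-like gene Smtnl2 was 1.44-fold lower.

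Cnn1 (calponin), which binds actin and slows the myosin motor, had a signal of 4.82 in the MSU pool and 64.6 in the control pool (1417917_at). The control signal was 1.00 times the control floor, just below it, and the plain ratio was 0.0746, the lowest of the 10 genes. Because neither signal reached its floor, no fold or bound is given. Had the control signal counted as detected, it would still lie below the MSU floor of 74.1 and give no bound. The paralogs Cnn2 and Cnn3, found in many cell types, were 1.31- and 1.40-fold lower, with signals of 954 and 1933 in the MSU pool against 1253 and 2699 in the control pool. Lmod1 (leiomodin), which starts actin filaments in smooth muscle, had a signal of 8.86 in the MSU pool and 8.61 in the control pool (1427485_at), far below both floors.

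Csrp2, a LIM domain protein of smooth muscle that helps SRF act on contractile genes, had the lowest ratio of the group with signal on both sides. Its signal was 337 in the MSU pool and 2019 in the control pool (1420731_a_at), which is 5.99-fold lower, and 4 of the 10045 genes with a fold, itself included, had a ratio as low. In this family the paralogs were low as well. Csrp1, which smooth muscle also expresses, had signals of 254 in the MSU pool and 1168 in the control pool and was 4.60-fold lower. Its second probe set had 191 in the MSU pool and 662 in the control pool. Csrp3, the family member of striated muscle, had signals of 193 in the MSU pool and 799 in the control pool and was 4.14-fold lower.

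Taken as lists, the paralogs lay nearer to the control value than the 10 genes. Of 15 broadly expressed paralogs and related genes all 15 were measured. Of these, 1 (Csrp1) was at least 2-fold lower and 0 at least 2-fold higher. Their median log2 ratio was -0.39. Of 14 striated muscle paralogs all 14 were measured, and 5 were at least 2-fold lower and 0 at least 2-fold higher, although 4 of the 14, and 2 of the 5, were measured through the control pool alone. The median of their 10 genes with a fold was -0.71.

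**Figure D2:**
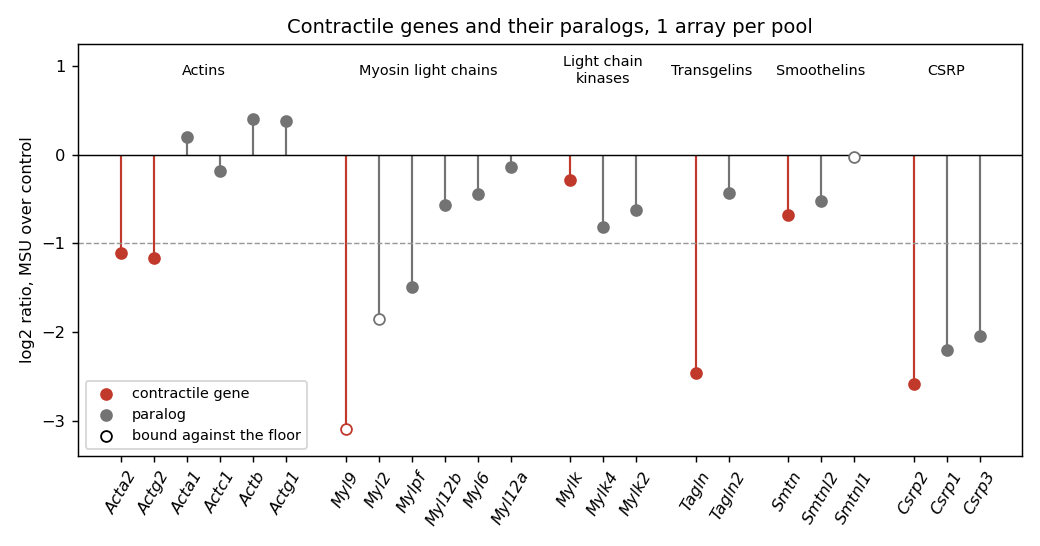
Log2 ratio of MSU over control signal (y axis) for the contractile genes (red) and their paralogs (grey) by family, 1 array per pool, with the bound of Myl9 as an open circle and the dashed line at 2-fold lower. Acta2, Actg2 and Tagln lie below the paralogs drawn beside them, Myl9 and Myl2 are both bounds, Mylk (-0.29) lies above Mylk2 and Mylk4, and in the CSRP family the paralogs at -2.20 and -2.05 lie near Csrp2 at -2.58.

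Beyond the 10 genes, a list of 28 further genes of smooth muscle structure and excitation was examined, of which 27 had a named probe set and 22 were measured. Here 3 were at least 2-fold lower, 0 at least 2-fold higher and 19 between, with a median log2 ratio of -0.62 over 20 genes with a fold. The tropomyosins, which wind along actin filaments, stood at the low end. Tpm1 had signals of 749 in the MSU pool and 2777 in the control pool and was 3.71-fold lower, with log2 ratios from -1.89 to -0.49 over its 3 probe sets with a fold. Tpm2, with 936 in the MSU pool and 2365 in the control pool, was 2.53-fold lower, and its 4 probe sets with a fold ranged from -1.83 to -1.11. Both genes also serve skeletal muscle.

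The third of these was the LIM protein Fhl1, 2.05-fold lower at 2004 in the MSU pool and 4112 in the control pool, and its other probe set with a fold was 1.15-fold lower. Synpo2, an actin-bundling protein of smooth and striated muscle, was 1.96-fold lower and Des (desmin), the intermediate filament of muscle cells, 1.69-fold lower. Cald1 (caldesmon), the other inhibitor of the myosin motor on actin filaments, had signals of 2978 in the MSU pool and 2766 in the control pool, and its probe sets with a fold ranged from -0.14 to 0.58 in log2 ratio. Actn1 (alpha-actinin) was 1.34-fold higher in the MSU pool on its brightest probe set. Its 3 probe sets with a fold ranged from -0.25 to 0.42 in log2 ratio, so they differed in direction. The smooth muscle markers Kcnmb1 and Ppp1r14a lay below both floors, as did Itga8 and Pln.

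Genes that mark pericytes lay nearer to the control value than the contractile genes. Of 15 genes, 14 were measured, 1 was at least 2-fold lower and 0 at least 2-fold higher, and the median log2 ratio was -0.38. The 1 lower gene was Cd248 (endosialin), at 443 in the MSU pool and 1218 in the control pool and 2.75-fold lower, which fibroblasts express too. Pdgfrb, the receptor by which pericytes are recruited to vessels, had signals of 708 in the MSU pool and 757 in the control pool and was 1.07-fold lower. Rgs5, a G protein regulator abundant in pericytes, was 1.53-fold lower on its brightest probe set. Its 4 probe sets with a fold ranged from -0.61 to 0.23 in log2 ratio, so they differed in direction. The potassium channel subunit Abcc9 was 1.89-fold lower and its partner Kcnj8 1.03-fold lower. The proteoglycan Cspg4 (NG2), with 66.3 in the MSU pool and 124 in the control pool, was at least 1.67-fold lower.

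No regulator of contractile genes passed 2-fold on its brightest probe set. Of 15 transcription factors and cofactors, 12 were measured and 0 were at least 2-fold lower or higher, with a median log2 ratio of -0.26. Under scaling on the spike-ins 3 were at least 2-fold lower and the median was -0.72. With no floor 1 was at least 2-fold lower. Srf itself had a signal of 190 in the MSU pool and 263 in the control pool and was 1.38-fold lower. On its other probe set Srf was 1.81-fold lower. Its cofactor Mrtfa was 1.46-fold lower and Mrtfb 1.17-fold lower, whereas Myocd (myocardin), the cofactor found in smooth and cardiac muscle, lay below both floors. Klf4, a factor that represses contractile genes in smooth muscle, had signals of 547 in the MSU pool and 965 in the control pool. This was 1.76-fold lower, whereas the other Klf4 probe set was 1.11-fold lower. Mef2c was 1.79-fold lower on its brightest probe set, but other Mef2c probe sets were 1.94-fold, 2.45-fold, at least 1.82-fold and at least 3.37-fold lower. Foxo4 was at least 1.68-fold lower, a bound with a plain ratio of 0.300, so its fold may exceed 2.

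The enzymes that set light chain phosphorylation were spread on both sides of 0. Of 22 genes on this list 17 had a named probe set and 16 were measured, with 0 at least 2-fold lower or higher and a median log2 ratio of 0.01, which becomes -0.45 under scaling on the spike-ins. The phosphatase subunit Ppp1r12a had signals of 571 in the MSU pool and 525 in the control pool, and the muscle form Ppp1r12b was 1.54-fold lower. Ppp1cb, the catalytic subunit, had signals of 1456 in the MSU pool and 1449 in the control pool.

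Of 13 receptors for constricting and relaxing agents, 10 had a named probe set and 8 were measured. Of these, 2 passed 2-fold upward and 0 downward. Avpr1a, the vasopressin receptor of vessels, had signals of 221 in the MSU pool and 75.6 in the control pool and was 2.92-fold higher. Ptgir, the receptor for prostacyclin, had 156 in the MSU pool and 60.8 in the control pool and was at least 2.41-fold higher. Both calls rest on control signals near the floor, at 1.17 times the floor for Avpr1a and 0.94 times for Ptgir. The count of 2 fell to 0 with the floor at rank 15000 and at a size of 3-fold, and to 1 under scaling on the spike-ins and with the pseudocount. The thromboxane receptor Tbxa2r was 1.59-fold lower, and the angiotensin receptor Agtr1a, at 143 in the MSU pool and 146 in the control pool, 1.03-fold lower. For the endothelin receptor Ednrb the brightest probe set had a log2 ratio of -0.53, but the median over its probe sets was 0.18.

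Markers of other tissues in the dissected membrane were lower in the MSU pool as well. On the skeletal muscle list, where all 22 genes reached a floor, the MSU pool was at least 2-fold below the control pool for 10, with a summed signal of 32493 in the MSU pool and 54869 in the control pool and a median log2 ratio of -1.01. On the adipocyte list, 6 of the 7 measured genes (8 had a named probe set) passed 2-fold in the same direction, with a summed signal of 3934 in the MSU pool and 14072 in the control pool. Glandular epithelium had 9 measured genes of 10 with a named probe set, and 5 of them passed 2-fold in this direction, with a summed signal of 654 in the MSU pool and 2211 in the control pool, among them Krt18 (at least 6.61-fold), Krt8 (2.84-fold) and Epcam (2.29-fold). Here 6 of the 9, and 3 of the 5, were measured through the control pool alone and could only be lower, as were 6 of the 22 skeletal muscle genes and 2 of their 10. Myoepithelial and basal epithelial markers were near or below detection. Of these 10, only Krt5 and Oxtr were measured, both above the floor in the control pool alone, and Krt14, Krt17 and Trp63 lay below both floors. The paper reports that single control membranes varied in resistin and dystrophin mRNA, and proposes that small remnants of fat and muscle were left on them. Its histology showed no adipocytes or skeletal muscle in dissected membranes, and RNA was pooled to correct for such differences. It describes the adjoining paraspinal tissue as rich in blood vessels and striated muscle. The part of these tissues in the ratios of the contractile genes was not tested.

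Markers of the vessel lining and of fibroblasts had medians near that of all genes. Of 15 endothelial markers 13 were measured and 0 were at least 2-fold lower or higher, with a median log2 ratio of -0.06 and a summed signal of 2513 in the MSU pool and 2931 in the control pool. Pecam1 and Cdh5 were at 262 and 201 in the MSU pool and 249 and 186 in the control pool. Other endothelial markers went the other way, with Eng 1.50-fold, Tek 1.41-fold and Vwf at least 1.46-fold lower in the MSU pool. Of 12 fibroblast markers, all measured, 1 was at least 2-fold lower (Mfap5, 2.11-fold), with a median of -0.06, and Pdgfra was 1.50-fold higher. Macrophage genes on the list numbered 11, and 10 were measured. Of these, 2 (Trem2 and Folr2) passed 2-fold downward and 0 upward, with a median of -0.30. Within 2-fold the list went both ways, with Cd163 1.94-fold and Mrc1 1.78-fold higher, and C1qa 1.41-fold and Adgre1 1.09-fold lower. Neutrophil markers were mostly higher in the MSU pool, with 8 of 9 measured at least 2-fold higher. Among these, Cxcr2 was measured through the MSU pool alone and could only be higher. The summed signal of the list was 21973 in the MSU pool against 2632 in the control pool.

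**Figure D3:**
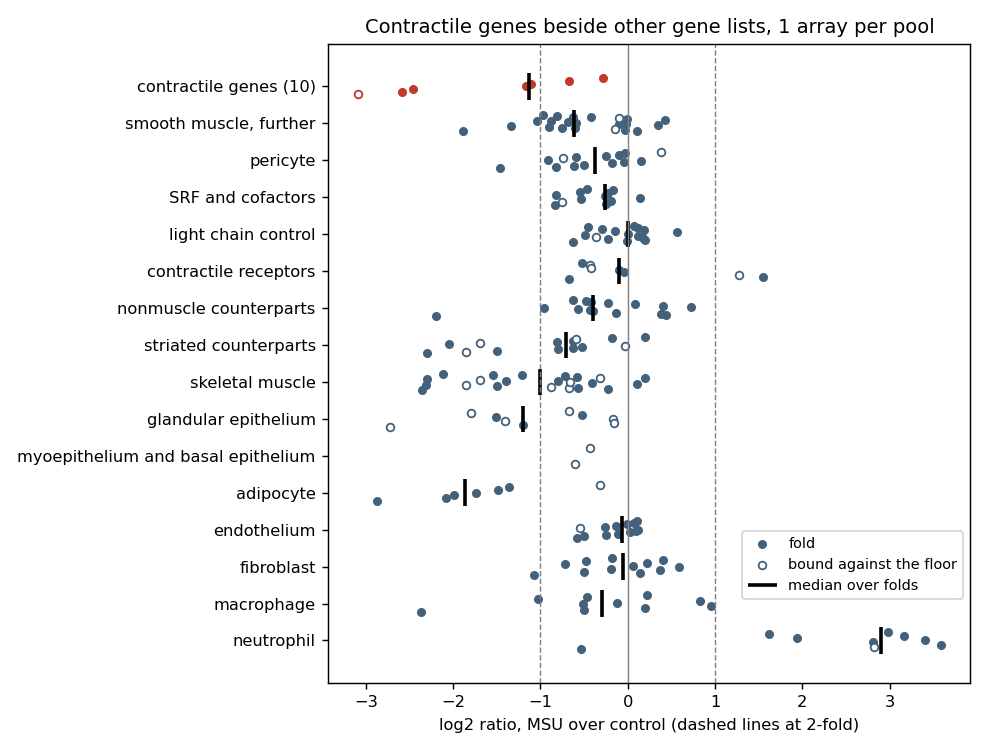
Log2 ratio of MSU over control signal (x axis) of the measured genes of 16 lists (y axis, the contractile genes in red at the top), from 1 array per pool, where folds are filled, bounds are open, black bars give the median of the folds and dashed lines mark 2-fold. The median of the contractile genes (-1.14) lies below those of skeletal muscle (-1.01), the further smooth muscle genes (-0.62), pericyte markers (-0.38) and endothelium (-0.06). It lies above those of glandular epithelium (-1.20, from 3 folds) and adipocytes (-1.86). The order with skeletal muscle turned under 2 alternatives that are not drawn. With no floor the skeletal muscle median was -1.52 against -1.21 for the contractile genes, and with the pseudocount -1.11 against -0.75.

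The 6 genes outside all lists whose log2 ratio lay nearest to the median of the contractile genes were Cd72, Wdr6, Pmepa1, Sf3b5, Mrpl20 and Tmem134, with ratios from -1.13 to -1.14. Likeness over 2 arrays rests on 1 ratio per gene, so many genes come as near.

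All 7 measured contractile genes kept a ratio below 0 under each of the 8 other ways of scaling, flooring and summarising the signals that gave a value for them. Scaling on the 18 hybridization spike-ins, all of them brighter on the MSU array, lowered every log2 ratio by 0.46 and put Smtn at -1.13, past 2-fold. Adding each floor as a pseudocount raised Actg2 to -0.80, inside 2-fold.

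**Figure D4:**
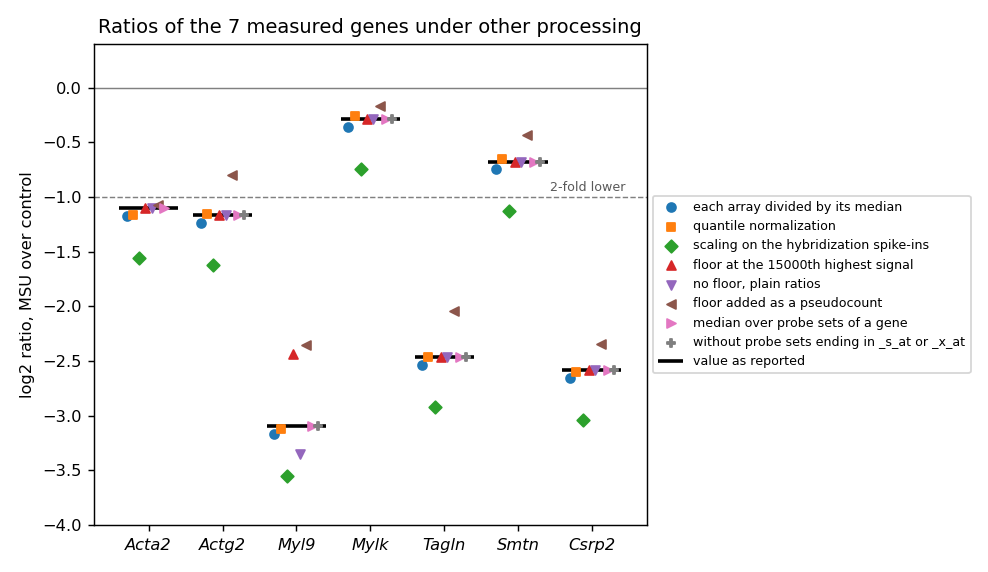
Log2 ratio of MSU over control signal (y axis) of the 7 measured contractile genes under each alternative (coloured symbols) and as reported (black bars), 1 array per pool, with the dashed line at 2-fold lower. Every symbol lies below 0, the spike-in scaling (green diamonds) lies lowest for each gene, and the value of Myl9 ranges from -3.55 to -2.36.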

How the data were processed

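RNA of dissected air pouch membranes was measured on 2 Affymetrix Mo430_2 arrays, 1 per pool of 3 mice. The authors deposited 1 linear intensity (signal) for each probe set, made with Affymetrix GCOS software (MAS5 in the submitters' processing notes, with no version stated). The mean of each array, trimmed by 2% at both ends, was 150.0, so the authors had scaled each by 1 factor. Signals were used as deposited, with MSU over control ratios on the log2 scale. Of 45101 probe sets, 64 were Affymetrix controls and were left out of gene values. Names came from the platform annotation, updated by gene identifier with RefSeq (GRCm38.p6), and probe sets with several genes were used for none. Each gene was represented by its brightest probe set (mean of the log2 signals). The detection floor was the signal at the rank equal to the count of detected probe sets in the paper, and takes no account of local background. No bound was given for a signal that did not also exceed the floor of the other array.

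No p-value was computed, as each condition had 1 array, and precision is limited by that number. Genes were counted at a fixed size of 2-fold. The members and the 15 other lists were chosen with earlier results of these data known. Named are all 10 members. Eligible per list were up to 4 measured genes with the largest ratios, up to 2 of the brightest and the paralogs of a member. Not all of these were named. Further list genes were named after their values were seen. Alternatives were median scaling, quantile normalization, scaling on the spike-ins, a higher floor at rank 15000 of each array, no floor, the floor as a pseudocount, the median over probe sets, leaving out probe sets ending in _s_at or _x_at, and a size of 3-fold. The gene step was tested on simulated data. Python 3.11.15, numpy and pandas were used.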

Additional observations from a re-analysis of the deposited data

How the results depend on the processing

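No gene of the group was at least 2-fold higher under any of the 9 alternatives, and the count at least 2-fold lower stayed between 4 and 7 under the 8 that kept the size of 2-fold, against 5 as reported. The count of 7 came with no floor, where all 10 genes had a plain ratio and Cnn1 and Myh11 joined the lower genes. With a size of 3-fold, 3 genes remained (Myl9, Tagln and Csrp2). The median log2 ratio of the group was -1.59 under scaling on the spike-ins, where the median of all genes was -0.51 in place of -0.05, and -0.75 with the floors added as a pseudocount, where all 10 genes entered. It lay between -1.21 and -1.14 under the other 6. Acta2 had no value without probe sets ending in _s_at or _x_at, since its other two lay below the floors, and the count was then 4. Scaling on the spike-ins also moved the share of higher genes among all genes past 2-fold to 10.1%, in place of 46.4%, and 15.8% of genes were then at least 2-fold lower. The share of higher genes was 60.3% with the pseudocount and 67.2% at 3-fold. The number of genes at least 2-fold lower was 1787 under scaling on the spike-ins, 217 with the pseudocount, 1724 with no floor and 80 at 3-fold, in place of 478. Under scaling on the spike-ins 12 of the further smooth muscle genes and 6 of the pericyte genes were at least 2-fold lower, in place of 3 and 1. The cause of these moves, beyond the change of scale or floor itself, was not tested. With 1 array per pool, signals near the floors limit the values: the MSU signals of Actg2, Smtn, Tagln and Mylk were 1.71 to 2.55 times the floor, that of Myl9 was below it, and the pseudocount moved Tagln to -2.04, in place of -2.47. No paired analysis was possible because each condition has 1 array.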
